A study of Mus musculus with 4 samples.

Results

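Trdc+ CD3+ cells were chosen to find gamma delta T cells among the CD45+ cells of these tumors. The choice used their own unique molecular identifiers (UMIs, each standing for 1 captured transcript). How many of the chosen cells are gamma delta T cells is not settled by the rule. A cell was a member when it had at least 1 UMI of Trdc, the constant gene of the T cell receptor delta chain, and at least 1 UMI of Cd3d, Cd3e or Cd3g, which encode chains of the CD3 complex. It had to have 0 UMIs of Cd8a, Cd8b1, Cd4 and Foxp3. Cells rich in neutrophil transcripts (S100a8 and S100a9 at 300 or more per 10000 UMIs) or in macrophage transcripts (C1qa, C1qb and C1qc at 20 or more per 10000) were left out. This gave 295 members of 28429 kept cells. The members were thus chosen by measured UMIs of these genes, whose levels in the members are a description.

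The cells came from EO771 tumors, grown from a mouse mammary cancer cell line in the mammary glands of female mice to 1.5 cm3 and sorted as viable CD45+ cells. The controls were 2 Csf1rfl/fl mice, and the other 2 mice were Lyve1CreCsf1rfl/fl. All 4 mice thus carried floxed Csf1r, the gene of the receptor for colony-stimulating factor 1, and Lyve1Cre deletes it in cells that express Lyve1, which include a subset of macrophages and lymphatic endothelium. The 2 Chromium runs each took a pair of tumors, 1 per genotype, labelled with different hashtag antibodies, and values below are given in the order Csf1rfl/fl run 1, Csf1rfl/fl run 2, Lyve1CreCsf1rfl/fl run 1 and Lyve1CreCsf1rfl/fl run 2. The ages of the mice were not given in the labels. Csf1r itself stood at 1.37, 2.16, 1.28 and 1.17 UMIs per 10000 in the C1q-rich macrophages of the 4 tumors, of which there were 771, 355, 171 and 114 cells, and the members had 0 UMIs of Lyve1.

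Gamma delta T cells carry an antigen receptor made of a gamma and a delta chain in place of the alpha and beta chains of other T cells. They respond without antigen presentation on classical MHC molecules, and most lack CD4 and CD8. In mice they fall into cells that make interferon gamma and kill targets, marked by T-bet, Eomes, CD27 and granzymes, and cells that make interleukin 17, marked by c-Maf, the scavenger receptor SCART1 (gene Cd163l1) and CCR6. The delta locus lies within the alpha locus, and the gamma locus holds several clusters of variable and constant genes.

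The gamma chain constant genes were not used in the rule and were taken as further signs of a gamma delta receptor. Tcrg-C2 was a weak sign, being lower in the members than in CD8 T cells (values below). The gamma chain constant genes share much of their sequence. On mm10, all of them lie on chromosome 13, with Tcrg-C1 at chr13:19214103-19217024, Tcrg-C3 at chr13:19260884-19263528, Tcrg-C2 on the reverse strand at chr13:19304649-19307551 and Tcrg-C4 at chr13:19344558-19352756. The first 150 bases of the first constant exon, which are coding, are shown to compare the copies over that stretch. It is not the 3′ end that the libraries read. Capitals mark bases that differ from Tcrg-C1.
Tcrg-C1, chr13:19214103-19214252, plus strand: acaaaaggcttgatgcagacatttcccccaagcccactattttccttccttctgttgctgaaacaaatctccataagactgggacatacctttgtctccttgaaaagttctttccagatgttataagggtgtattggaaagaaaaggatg
Tcrg-C2, chr13:19307402-19307551, minus strand: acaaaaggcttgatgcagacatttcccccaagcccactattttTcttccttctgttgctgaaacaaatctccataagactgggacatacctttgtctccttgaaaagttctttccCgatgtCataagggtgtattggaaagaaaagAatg
Tcrg-C3, chr13:19260885-19261034, plus strand: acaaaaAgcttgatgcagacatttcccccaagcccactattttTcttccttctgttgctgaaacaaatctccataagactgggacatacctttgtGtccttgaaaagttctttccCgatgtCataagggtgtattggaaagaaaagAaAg
Tcrg-C4, chr13:19344558-19344707, plus strand: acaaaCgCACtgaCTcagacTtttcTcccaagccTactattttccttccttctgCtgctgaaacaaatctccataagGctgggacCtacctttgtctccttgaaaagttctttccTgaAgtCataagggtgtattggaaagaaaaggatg
Tcrg-C2 differed from Tcrg-C1 at 4 of these 150 bases, Tcrg-C3 at 7 and Tcrg-C4 at 15. The libraries read the 3′ end of the transcript, and over the bases after the coding sequence Tcrg-C1 and Tcrg-C2 were 93.2% identical with a longest shared run of 104 bases. Tcrg-C1 and Tcrg-C4 were 55.5% identical there, with a longest shared run of 9 bases. The split of UMIs between Tcrg-C1 and Tcrg-C2 is therefore uncertain, while Tcrg-C4 has a distinct 3′ end.

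Kept cells numbered 8613, 7786, 7248 and 4771 in the 4 tumors, with median depths of 3718 to 4668 UMIs. Members numbered 43, 81, 82 and 89, with median depths of 3874, 4219, 3626 and 3252 UMIs and 314391 to 427171 UMIs in all per tumor. Scrublet, which scores barcodes for likeness to simulated doublets, called 14, 7, 13 and 1 of them doublets, and it called 24.3% of all kept cells in run 1 and 4.32% in run 2. Members with over 10000 UMIs numbered 12, 7, 8 and 10 and held 64.7%, 23.7%, 31.1% and 29.9% of their tumor's member UMIs. Scrublet called 8, 2, 6 and 1 of these doublets, so the levels of the Csf1rfl/fl tumor of run 1 rest largely on 12 cells of which it called 8. The runs shared 60 barcode sequences among the kept cells, of which 1 was that of a member and 0 were members in both runs.

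Trdc UMIs alone did not single out T cells. Of 736 kept cells with a Trdc UMI, 401 had a CD3 UMI, and each further step of the rule removed cells until 295 were left. Of the 335 cells with Trdc and without CD3, 264 were NK cells by an Ncr1 or Klrb1c UMI. Trdc was found in 16.8% of the 1576 NK cells (95% exact binomial interval 14.9% to 18.7%, median depth 4235 UMIs). It was found in 0.637% of neutrophils, 1.70% of C1q-rich macrophages, 0.994% of Foxp3+ T cells and 0 of 158 B cells, which allows a share of up to 1.90% by a limit of 3 counts and 2.31% by the exact binomial interval (median depth 6554.5 UMIs). Among CD3+ cells, Trdc was found in 1.23% of those with CD8 genes, 0.751% of those with Cd4 and 10.7% of those with neither and no Foxp3. Intervals cover counting error only.

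Many members rested on few UMIs. Trdc was present at 1 UMI in 132 members and at 2 or more in 163, and 66 members had 1 CD3 UMI in all. The members nearest the limits had 290 neutrophil and 18.2 macrophage UMIs per 10000, and the nearest cells left out had 349 and 26.0.

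A gamma chain constant gene (Tcrg-C1, Tcrg-C2 or Tcrg-C4) was seen in 154 of the 295 members (52.2%), in 23, 44, 43 and 44 members of the 4 tumors. After each cell was thinned to 1500 UMIs the share was 33.5%, against 14.1% of CD8 T cells, 0.687% of CD4 T cells without Foxp3 and 2.17% of NK cells. Unthinned, those classes had 32.1%, 1.26% and 5.52%. An NK gene (Ncr1, the NKp46 receptor, or Klrb1c, NK1.1) was seen in 137 members (46.4%), in 25, 41, 37 and 34 of the 4 tumors. Transcripts of a gamma constant gene were thus seen in little over as many members as carried an NK gene, and the cells are called Trdc+ CD3+ here, by their rule.

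The members fell into 4 strata by these 2 features. The first held 99 members with a gamma constant gene and no NK gene (11, 27, 29 and 32 by tumor), the second 55 with both (12, 17, 14 and 12), the third 59 with neither (7, 13, 16 and 23) and the last 82 with an NK gene alone (13, 24, 23 and 22). Every stratum was present in each tumor.

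The strata differed in depth and in the number of UMIs that had admitted them. Median depth was 2914, 4517, 3252 and 5201.5 UMIs in that order. The mean Trdc UMIs per cell were 3.22, 2.76, 2.49 and 1.49, and 25.3%, 40.0%, 45.8% and 70.7% of the cells had 1 Trdc UMI. A single CD3 UMI was carried by 9.09%, 7.27%, 13.6% and 54.9%. The members with an NK gene alone thus had the fewest Trdc UMIs at the greatest depth, and since Trdc is also found in NK cells and free RNA was not removed, how many of them were T cells cannot be told from these values.

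**Figure D1:**
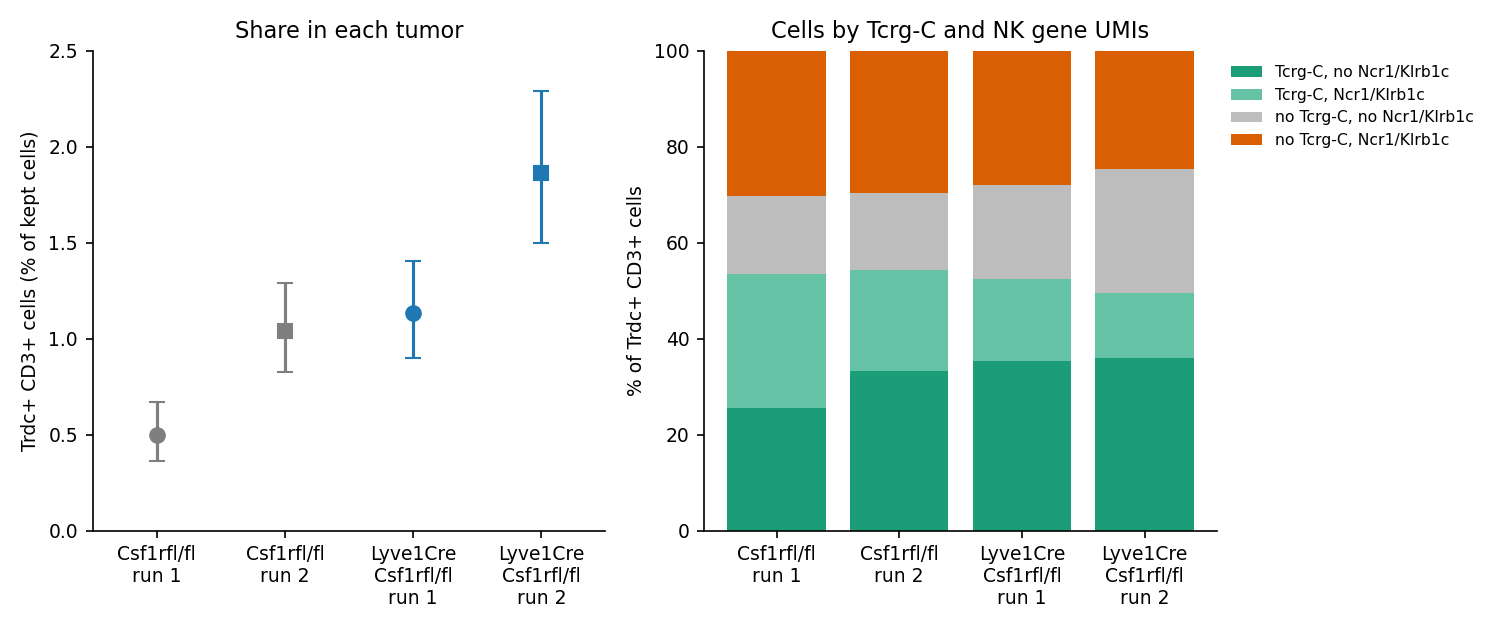
Trdc+ CD3+ cells in the 4 tumors. Left, their share of each tumor's kept cells in percent (points) with 95% exact binomial intervals (bars), and right, the percent of each tumor's members by whether a Tcrg-C UMI and an Ncr1 or Klrb1c UMI was present (stacked bars). Shares ran from 0.499% to 1.87% and all 4 kinds of member were found in each tumor.

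Genes of killing followed the NK genes. Prf1, which encodes perforin, was found in 72.0% of members with an NK gene alone, 27.3% of those with both features, 11.9% of those with neither and 11.1% of those with a gamma constant gene alone. Gzma, which encodes granzyme A, was found in 69.5%, 29.1%, 16.9% and 8.08% of the same strata, and Gzmb, which encodes granzyme B, in 70.7%, 58.2%, 18.6% and 28.3%. These shares are descriptions over cells of unequal depth. Klra7, an inhibitory Ly49 receptor of NK cells, was found in 52.4%, 40.0%, 11.9% and 7.07%, and the chemokine receptor Ccr2 in 73.2%, 30.9%, 20.3% and 26.3%.

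Genes of resting and circulating T cells went the other way in spite of the lower depth of the gamma constant stratum. S1pr1, the receptor that lets lymphocytes leave tissue along sphingosine-1-phosphate, was found in 40.4% of members with a gamma constant gene alone and 7.32% of those with an NK gene alone. Il7r, the interleukin 7 receptor, was found in 52.5% and 12.2% of these strata, and Tcf7, which encodes the transcription factor TCF-1, in 58.6% and 45.1%. Xcl1, a chemokine that draws cross-presenting dendritic cells, was found in 48.5% and 78.0% of them, and in 90.9% of members with both features.

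**Figure D2:**
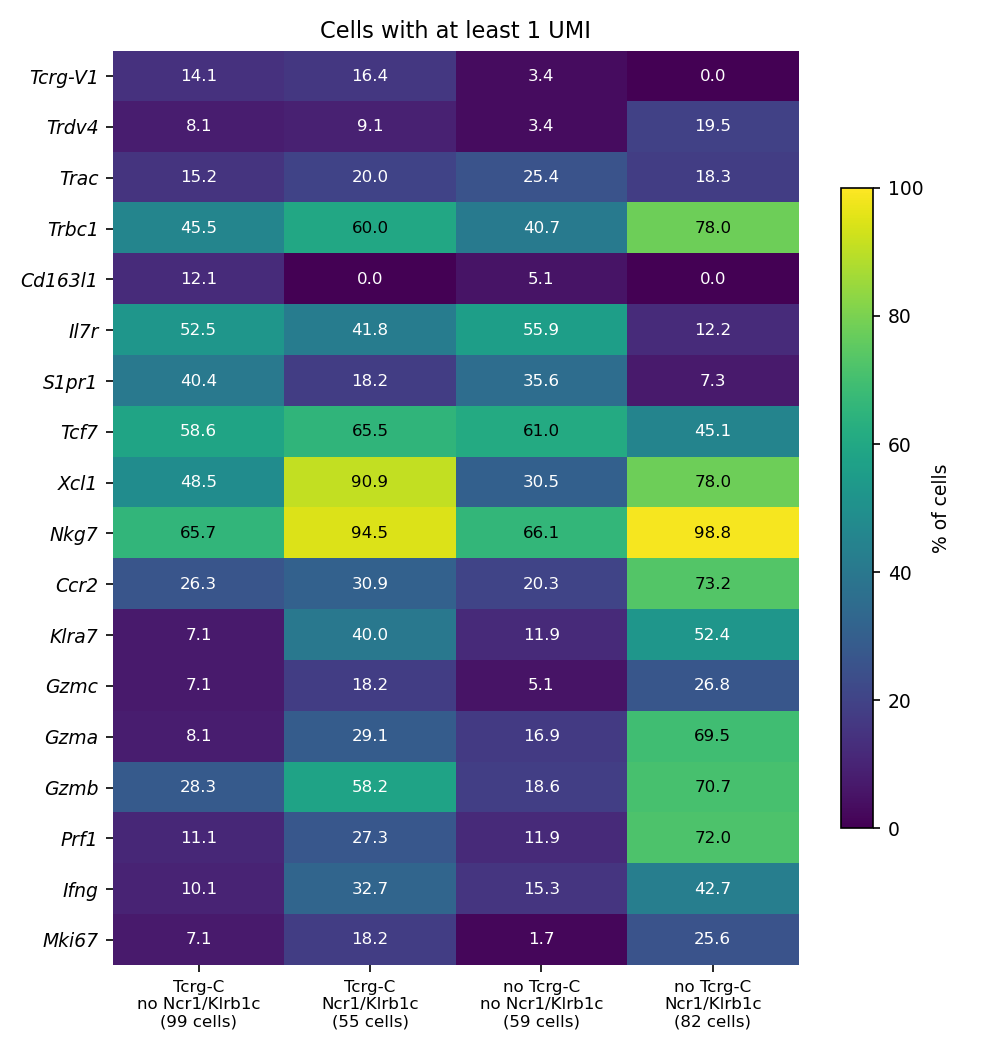
Percent of Trdc+ CD3+ cells with at least 1 UMI of each gene, by whether a Tcrg-C UMI and an Ncr1 or Klrb1c UMI was present, over the cells of all 4 tumors without thinning. Prf1 ran from 11.1% in cells with a Tcrg-C UMI alone to 72.0% in those with an NK gene alone, while S1pr1 ran from 40.4% to 7.32%.

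Levels below are UMIs of a gene per 10000 UMIs, summed over the cells of a class in each tumor. Log2 differences are those of edgeR's quasi-likelihood test on these sums, members minus the other class, with the tumor as a block and p-values adjusted by Benjamini-Hochberg over all genes tested. A gene was called at an adjusted p under 0.05. The other classes were 3538 CD8 T cells (CD3 and Cd8a or Cd8b1, no Trdc), 793 CD4 T cells without Foxp3 (CD3 and Cd4, no Trdc) and 1576 NK cells (Ncr1 or Klrb1c, no CD3). Their median depths were 5485, 3766 and 4235 UMIs, and 3702 in the members. Genes used in the rules of the classes compared were not tested.

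Against CD8 T cells, 928 of 10250 genes were called, 9.05% of those tested, with 372 higher (3.63%) and 556 lower (5.42%) in the members. Against CD4 T cells without Foxp3, 946 of 8054 were called (11.7%), with 415 higher (5.15%) and 531 lower (6.59%). Against NK cells, 437 of 8898 were called (4.91%), with 191 higher (2.15%) and 246 lower (2.76%). The split between higher and lower calls depended on the scaling. With relative log expression factors it was 465 to 453, 492 to 436 and 244 to 174, and with DESeq2 315 to 245, 253 to 187 and 117 to 67.

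Among the 8 gamma delta receptor genes tested against CD8 T cells, 6 were higher and 1 lower, with a median log2 difference of 4.03 (all genes -0.07). Delta chain variable genes are among those higher. Their direction is in part fixed, since members had a Trdc UMI and CD8 T cells had none by rule. Tcrg-C4 stood at 0.318, 1.24, 0.841 and 1.36 per 10000 in the members of the 4 tumors and at 0.152, 0.103, 0.109 and 0.252 in NK cells (log2 difference 2.53, SE 0.27, adjusted p = 1.59e-06). The members were above the NK cells in every tumor. Against CD8 T cells Tcrg-C4 differed by 3.93 (SE 0.28, adjusted p = 3.94e-09). Tcrg-C1, the constant gene next to the variable genes Tcrg-V4 to Tcrg-V7, stood at 0.350, 0.909, 0.561 and 0.538 (log2 difference 4.42, SE 0.34, adjusted p = 1.60e-08 against CD8 T cells).

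Tcrg-C2 went against the other gamma constant genes when set beside CD8 T cells. It stood at 0.382, 0.694, 0.510 and 0.609 in the members and at 0.624, 1.23, 0.886 and 0.730 in CD8 T cells (log2 difference -0.68, SE 0.17, adjusted p = 0.0160), lower in the members of each tumor. It was higher than in CD4 T cells (log2 difference 4.82, SE 0.45, adjusted p = 2.29e-07). Alpha beta T cells can carry gamma transcripts that do not give a receptor, and Tcrg-C2 was the gamma constant gene that CD8 T cells held at such a level. Members with Tcrg-C2 as their only gamma constant gene are counted here among those with a gamma constant gene.

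Variable genes were seen in few members. A Tcrg-V UMI was seen in 45 members and a Trdv UMI in 43. Tcrg-V1, which lies beside Tcrg-C4 in the locus, was seen in 25 members, of which 15 also had a Tcrg-C4 UMI and 7 a Tcrg-C1 UMI. Of 19 members with Tcrg-V4, Tcrg-V5, Tcrg-V6 or Tcrg-V7, which lie before Tcrg-C1, 10 had a Tcrg-C1 UMI and 9 a Tcrg-C4 UMI. Over all members, 69 had Tcrg-C1, 65 Tcrg-C2 and 88 Tcrg-C4, and 26 had both Tcrg-C1 and Tcrg-C4. Tcrg-V1 stood at 0.0954, 0.167, 0.102 and 0.421 in the members (log2 difference 4.07, SE 0.60, adjusted p = 0.000113 against CD8 T cells).

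Trdv4, a delta chain variable gene at chr14:54074905-54075515 on the plus strand, was no mark of the members. It stood at 0.223, 0.0957, 0.331 and 0.398 in them and at 0.528, 0.557, 0.449 and 0.493 in NK cells, of which 20.4% had a UMI (log2 difference -1.0, SE 0.27, adjusted p = 0.0309). NK cells were above the members in every tumor. Against CD8 T cells Trdv4 was higher in the members (log2 difference 4.73, SE 0.50, adjusted p = 1.48e-06). The CD8 T cells were chosen without Trdc UMIs, so this direction for a gene of the delta locus is in part fixed by the rules of the classes. Among the strata it was most frequent in members with an NK gene alone, at 19.5%, and stood at 8.08% in those with a gamma constant gene alone.

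The alpha chain constant gene Trac was low but not absent. It was seen in 56 members and stood at 0.413, 0.598, 0.382 and 0.679 in the 4 tumors against 4.87, 4.57, 5.21 and 4.40 in CD8 T cells (log2 difference -3.21, SE 0.16, adjusted p = 2.51e-11). The groups lay far apart. The beta chain constant genes were not low in the same way: Trbc1 stood at 1.75, 2.80, 3.62 and 4.31 against 2.05, 2.01, 2.17 and 1.52 in CD8 T cells (log2 difference 0.64, SE 0.18, adjusted p = 0.0240), while Trbc2 was lower (log2 difference -1.39, SE 0.12, adjusted p = 4.25e-08). In Trbc1 the members of the Csf1rfl/fl tumor of run 1 were below its CD8 T cells and those of the other tumors above. Trbc1 and Trbc2 are similar copies, and their 3′ ends were not compared here, so how well reads tell them apart is not known.

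**Figure D3:**
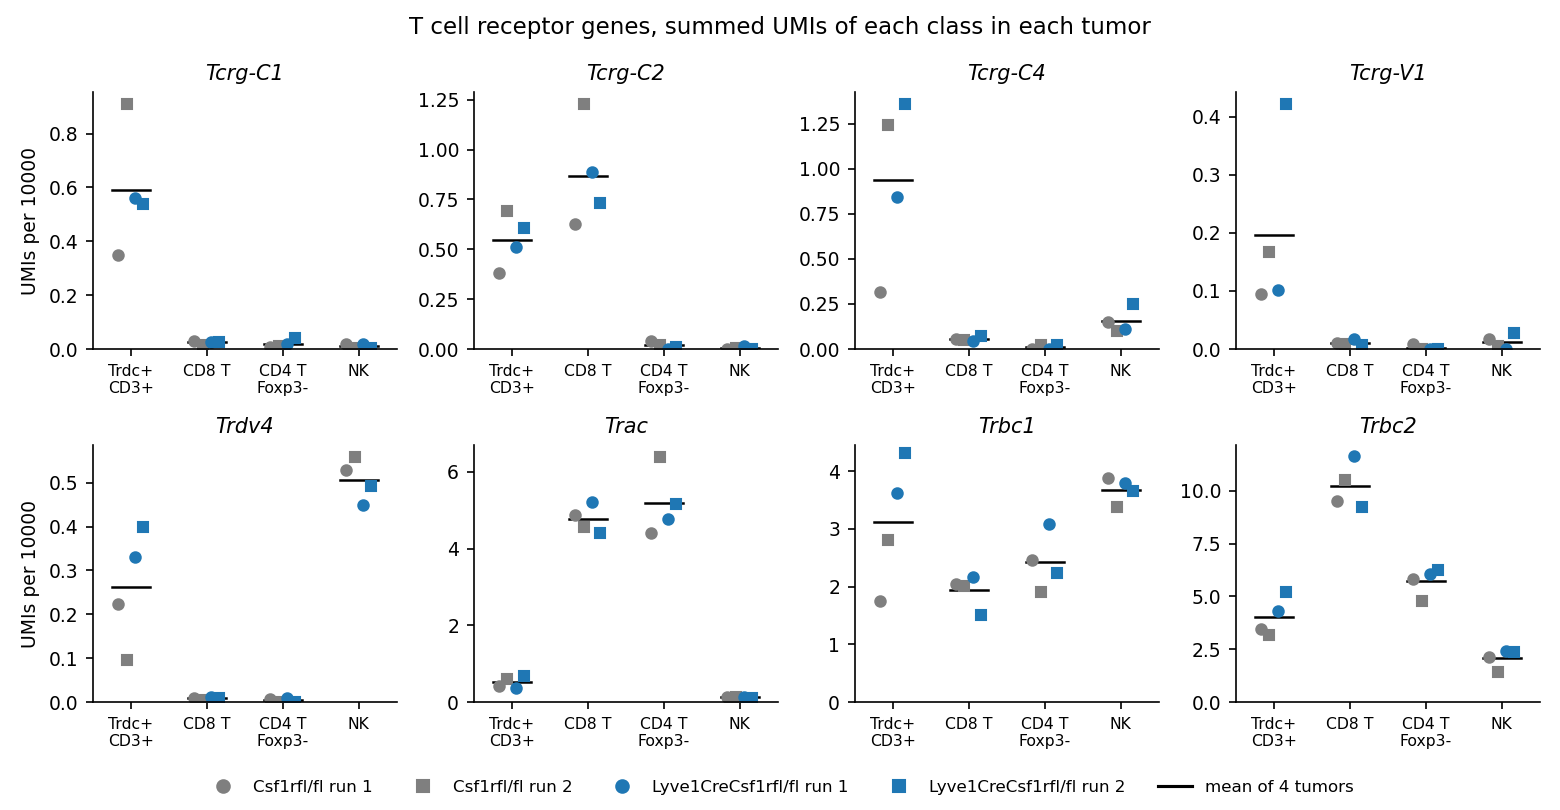
Levels of T cell receptor genes in Trdc+ CD3+ cells and 3 other classes, as UMIs per 10000 summed UMIs (linear axis from 0), with 1 point per tumor and a line at the mean of the 4 tumors. Tcrg-C4 in the members ran from 0.318 to 1.36, above the NK cells of the same tumors, whereas Trdv4 was higher in NK cells.

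Among genes of the interferon gamma and cytotoxic list, 10 of 22 tested were higher and 3 lower than in CD8 T cells (median 0.30), 19 of 22 were higher and 0 lower than in CD4 T cells (median 2.26), and 3 were higher and 13 lower than in NK cells (median -0.63). Gzma, Gzmb, Eomes and the chemokine gene Ccl5 were called both higher than in CD8 T cells and lower than in NK cells. The share of all genes called in both ways was not counted, and 82 members with an NK gene alone are part of these sums. Gzma stood at 19.4, 29.0, 31.3 and 44.7 in the members, 3.22, 0.673, 3.69 and 1.89 in CD8 T cells and 103, 68.1, 92.6 and 77.2 in NK cells. No tumor had members below its CD8 T cells or above its NK cells. The test gave log2 difference 3.85, SE 0.30, adjusted p = 1.42e-08 against CD8 T cells and log2 difference -1.54, SE 0.16, adjusted p = 1.59e-06 against NK cells.

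Gzmb stood at 14.8, 11, 8.92 and 12.0 in the members and 5.91, 5.42, 4.55 and 5.88 in CD8 T cells (log2 difference 1.05, SE 0.09, adjusted p = 3.72e-08), higher in the members of each tumor. Gzmc, which encodes granzyme C, stood at 14.4, 3.59, 7.75 and 18.1 and varied among tumors (log2 difference 3.31, SE 0.27, adjusted p = 3.84e-08). Gzmf, a neighbouring granzyme gene with similar sequence, had 1 UMI in all members and stood at 1.34, 2.23, 0.710 and 1.43 in CD8 T cells (adjusted p = 8.79e-11). Prf1 did not pass the test against CD8 T cells (log2 difference -0.13, SE 0.14, adjusted p = 0.680) and was higher than in CD4 T cells (log2 difference 3.40, SE 0.19, adjusted p = 1.16e-10). Ifng, which encodes interferon gamma, stood at 1.15, 0.981, 1.25 and 0.866 against 3.32, 2.16, 2.39 and 2.18 in CD8 T cells and was lower in the members of every tumor (log2 difference -1.26, SE 0.13, adjusted p = 1.40e-06).

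A few members held much of the granzyme signal. Gzma had 4962 UMIs in 91 members, and 44.4% of them lay in the 5 members with the most. The same 5-member share was 57.0% of 1679 UMIs for Gzmc, 31.2% of 1786 for Gzmb and 39.3% of 2499 for Xcl1. In members with both a gamma constant gene and an NK gene, Gzma stood at 142 per 10000 in the Lyve1CreCsf1rfl/fl tumor of run 2 and at 1.44 or less in the others.

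The granzyme calls rested on the members with an NK gene. With a gamma constant UMI required, a choice added after the values were seen, Gzma differed from CD8 T cells by 0.87 (adjusted p = 0.480) and Gzmb by -0.14 (adjusted p = 0.718). Without members that had Ncr1 or Klrb1c UMIs, also added after the values were seen, Gzma gave -0.43 (adjusted p = 0.280), Gzmb -1.34 (adjusted p = 2.16e-12) and Gzmc -2.01 (adjusted p = 2.00e-07). The same rule gave, against CD4 T cells, -0.16 (adjusted p = 0.891) for Gzma, -0.31 (adjusted p = 0.443) for Gzmb, -1.77 (adjusted p = 0.000438) for Gzmc and 0.11 (adjusted p = 0.926) for Prf1. Under that rule 2.71% of all 10139 genes tested were higher and 8.42% lower than in CD8 T cells, and 2.25% higher and 4.38% lower of 7595 against CD4 T cells. The cytotoxic list then had 3 higher and 8 lower genes of 22 against CD8 T cells, and 13 higher and 1 lower against CD4 T cells.

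The call of Xcl1 against CD8 T cells held under both choices, at a smaller size. It stood at 14.4, 11.5, 26.7 and 12.1 in the members, at 2.65, 2.84, 4.14 and 6.21 in CD8 T cells and at 0.753, 0.370, 0.693 and 0.613 in CD4 T cells, and each tumor's members were above both. It was higher than in CD8 T cells (log2 difference 2.0, SE 0.17, adjusted p = 6.48e-08) and CD4 T cells (log2 difference 4.74, SE 0.16, adjusted p = 1.43e-13), and did not pass the test against NK cells (log2 difference 0.06, SE 0.14, adjusted p = 0.896). With a gamma constant UMI required the difference from CD8 T cells was 1.49 (adjusted p = 1.61e-07), and without members with NK genes 0.74 (adjusted p = 0.000177).

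Of the 12 NK marker genes tested, 11 were higher and 0 lower than in CD8 T cells (median 2.92), and 12 of 12 were higher than in CD4 T cells (median 3.97). Against NK cells 11 of 11 were lower (median -1.13). By rule the NK cells had an Ncr1 or Klrb1c UMI and no CD3 UMI, whereas members had a CD3 UMI. The direction against NK cells is thus in part fixed by the rules of the classes. Klra7 stood at 1.46, 2.18, 2.40 and 2.36 in the members, 0.188, 0.221, 0.382 and 0.281 in CD8 T cells and 4.37, 3.48, 4.35 and 3.85 in NK cells, and the 3 classes did not overlap (log2 difference 2.95, SE 0.15, adjusted p = 3.56e-11 against CD8 T cells). The genes of the Ly49 family have near-identical copies, among which reads may be split with error. Klra7 remained higher than in CD8 T cells with a gamma constant UMI required, at 2.22 (adjusted p = 2.15e-07), and without members with Ncr1 or Klrb1c, at 1.14 (adjusted p = 0.00597). Without those members, the NK list as a whole had 1 higher and 1 lower gene of 10 against CD8 T cells (all genes 2.71% and 8.42%) and 3 higher and 0 lower of 7 against CD4 T cells (all genes 2.25% and 4.38%). The CD8 and CD4 T cells kept their cells with Ncr1 or Klrb1c UMIs, so the loss of calls in this list is in part fixed by the choice of members.

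Genes of naive and circulating T cells were higher than in CD8 T cells under all 3 choices of members. Of 9 tested, 7 were higher and 0 lower, with a median of 1.27. S1pr1 stood at 0.223, 0.957, 1.02 and 1.33 in the members and 0.0731, 0.223, 0.208 and 0.549 in CD8 T cells (log2 difference 1.78, SE 0.21, adjusted p = 5.81e-06). Tcf7 stood at 0.891, 2.56, 1.83 and 3.23 against 0.245, 0.753, 0.761 and 1.49 (log2 difference 1.42, SE 0.14, adjusted p = 7.06e-07). Both genes were higher in the members of each tumor. The chromatin organiser Satb1 (1.76), the TCF-1 partner Lef1 (1.27), Klf2, which drives S1pr1 (1.25), and Il7r (1.12) were also called.

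With a gamma constant UMI required, S1pr1, Satb1 and Tcf7 gave log2 differences from CD8 T cells of 2.16 (adjusted p = 2.75e-07), 1.76 (adjusted p = 1.47e-07) and 1.57 (adjusted p = 1.61e-07). Without members with NK genes they gave 2.58 (adjusted p = 4.87e-18), 1.78 (adjusted p = 4.08e-15) and 1.65 (adjusted p = 4.16e-13). The list counts were 7 higher and 0 lower of 9 under both, where 2.41% of all genes were higher and 5.62% lower with a gamma constant UMI required, and 2.71% and 8.42% without members with NK genes. In the comparison with CD4 T cells 5 of 9 were higher and Ccr7, the lymph node homing chemokine receptor, was lower (log2 difference -0.84, SE 0.26, adjusted p = 0.0390). Against NK cells 5 of 9 were higher, among them Il7r at 0.954, 2.30, 3.62 and 2.34 in the members and 0.281, 0.342, 0.350 and 0.137 in NK cells (log2 difference 2.95, SE 0.22, adjusted p = 1.29e-08).

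Checkpoint receptors and the exhaustion factor Tox, a group that marks T cells under lasting antigen contact, were lower than in CD8 T cells in 6 of 10 genes and higher in 1 (median -1.71). Pdcd1, which encodes PD-1, stood at 0.0636, 0.167, 0.229 and 0.117 in the members and at 1.33, 2.01, 1.80 and 1.39 in CD8 T cells (log2 difference -3.51, SE 0.22, adjusted p = 4.63e-10). The lowest CD8 value was above the highest member value. Havcr2, which encodes TIM-3, differed by -2.98, Lag3 by -2.61, Tox by -2.10 and Ctla4 by -1.52 (adjusted p = 2.09e-08, 1.90e-08, 2.59e-07 and 0.00195). Cd160, a receptor shared by NK cells and cytotoxic T cells, was the higher gene (log2 difference 0.45, SE 0.14, adjusted p = 0.0458).

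Against CD4 T cells without Foxp3, 7 of 9 checkpoint genes were lower and 1 higher (median -1.44), and 6 of 7 costimulatory receptors were lower and 1 higher (median -2.15). Against CD8 T cells 4 of 7 costimulatory receptors were lower and 0 higher (median -0.42). Against NK cells 2 of 9 checkpoint genes were higher (Vsir and Cd160) and 2 lower (Entpd1 and Lag3) with a median of 0.56, and 3 of 6 costimulatory receptors were higher and 1 lower (median 0.81). From CD4 T cells without Foxp3, Ctla4 differed by -3.45, Pdcd1 by -2.77 and Tnfrsf4, which encodes the costimulatory receptor OX40, by -4.14 (adjusted p = 2.84e-09, 2.30e-07 and 1.02e-10). Tff1, a secreted trefoil peptide, had 0 UMIs in the members and stood at 0.662, 1.66, 1.73 and 0.781 in the CD4 T cells (adjusted p = 4.83e-09). Penk, the proenkephalin gene, had 3 UMIs in the members against 1.13, 3.22, 4.88 and 2.58 per 10000 in CD4 T cells (adjusted p = 3.99e-11). Cd5, which dampens T cell receptor signals, was lower as well (log2 difference -2.80, SE 0.21, adjusted p = 7.81e-09).

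Of the chemokine receptors, 4 of 11 tested were higher and 3 lower than in CD8 T cells, 2 of 9 higher and 4 lower than in CD4 T cells, and 2 of 9 higher and 2 lower than in NK cells. Ccr2 stood at 2.29, 3.16, 2.5 and 2.93 in the members and at 0.732, 0.783, 0.382 and 0.750 in CD8 T cells (log2 difference 2.03, SE 0.15, adjusted p = 5.42e-09), with no overlap, and was lower than in NK cells (log2 difference -0.69, SE 0.11, adjusted p = 0.000307). Cxcr6, a receptor of tissue-resident lymphocytes, was lower than in CD8 T cells (log2 difference -2.25, SE 0.15, adjusted p = 1.94e-09) and higher than in NK cells (log2 difference 1.82, SE 0.24, adjusted p = 3.76e-05). The higher Ccr2 level against CD8 T cells remained with a gamma constant UMI required, at 1.09 (adjusted p = 0.000531), and without members with NK genes, at 1.08 (adjusted p = 0.000110). Against CD4 T cells Ccr2 was called over all members (log2 difference 0.78, SE 0.13, adjusted p = 0.000356) and not under either narrower choice, which gave -0.13 (adjusted p = 0.847) and -0.13 (adjusted p = 0.832).

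Among lineage transcription factors, 11 of 23 were higher and 4 lower than in CD8 T cells. Bcl11b, which fixes T cell identity, was far above NK cells (log2 difference 5.22, SE 0.32, adjusted p = 5.98e-10) and below CD8 T cells (log2 difference -0.56, SE 0.17, adjusted p = 0.0423). It stood at 0.286, 0.718, 0.765 and 1.01 in the members, 0.669, 1.15, 1.05 and 1.13 in CD8 T cells and 0.00677, 0.0244, 0.0148 and 0.0219 in NK cells. The NK cells were chosen without CD3 UMIs, so the distance of Bcl11b from them is in part fixed by the rules of the classes. Ikzf2, which encodes Helios, was higher than in NK cells (log2 difference 1.81, SE 0.15, adjusted p = 3.75e-08), as was Id3, which follows gamma delta receptor signals (log2 difference 1.88, SE 0.33, adjusted p = 0.000999). Themis, an adaptor of alpha beta T cell signalling, was lower than in CD8 T cells (log2 difference -2.82, SE 0.26, adjusted p = 1.77e-07). Eomes, a factor of cytotoxic lymphocytes, was higher than in CD8 T cells (log2 difference 1.52, SE 0.17, adjusted p = 3.23e-06) and lower than in NK cells (log2 difference -0.64, SE 0.14, adjusted p = 0.00856).

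Interferon-stimulated genes were higher than in NK cells in 10 of 27 and lower in 0, among them Iigp1, Ifit3 and Oasl2, with a median of 0.41. Compared with CD4 T cells 0 were higher and 10 lower, and against CD8 T cells 4 were higher and 2 lower. Immediate early and heat shock genes, which also rise when tissue is digested to single cells, were higher in 8 of 16 against CD8 T cells, 4 of 16 against CD4 T cells and 6 of 16 against NK cells, and lower in 0. Junb differed by 0.84, 0.44 and 0.71 from these classes. Some markers of other cells were also higher than in NK cells: 2 of 5 neutrophil genes tested (Retnlg and Il1b), 2 of 6 dendritic cell genes (H2-Ab1 and Cd74, of antigen presentation) and 1 of 9 macrophage and monocyte genes (Ly6c2, which the cytotoxic list also holds, log2 difference 1.30, adjusted p = 3.16e-08), with 0 lower. The macrophage markers, Ly6c2 among them, summed to 12.2 to 28.6 per 10000 in the members, 10.5 in NK cells and 19.8 in CD8 T cells. Retnlg had 94 UMIs in 17 members, of which Scrublet called 9 doublets. Of these UMIs 84.0% lay in 5 members, and 69 were in the Csf1rfl/fl tumor of run 1. The part of transcripts from other cells in these lists was not tested.

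**Figure D4:**
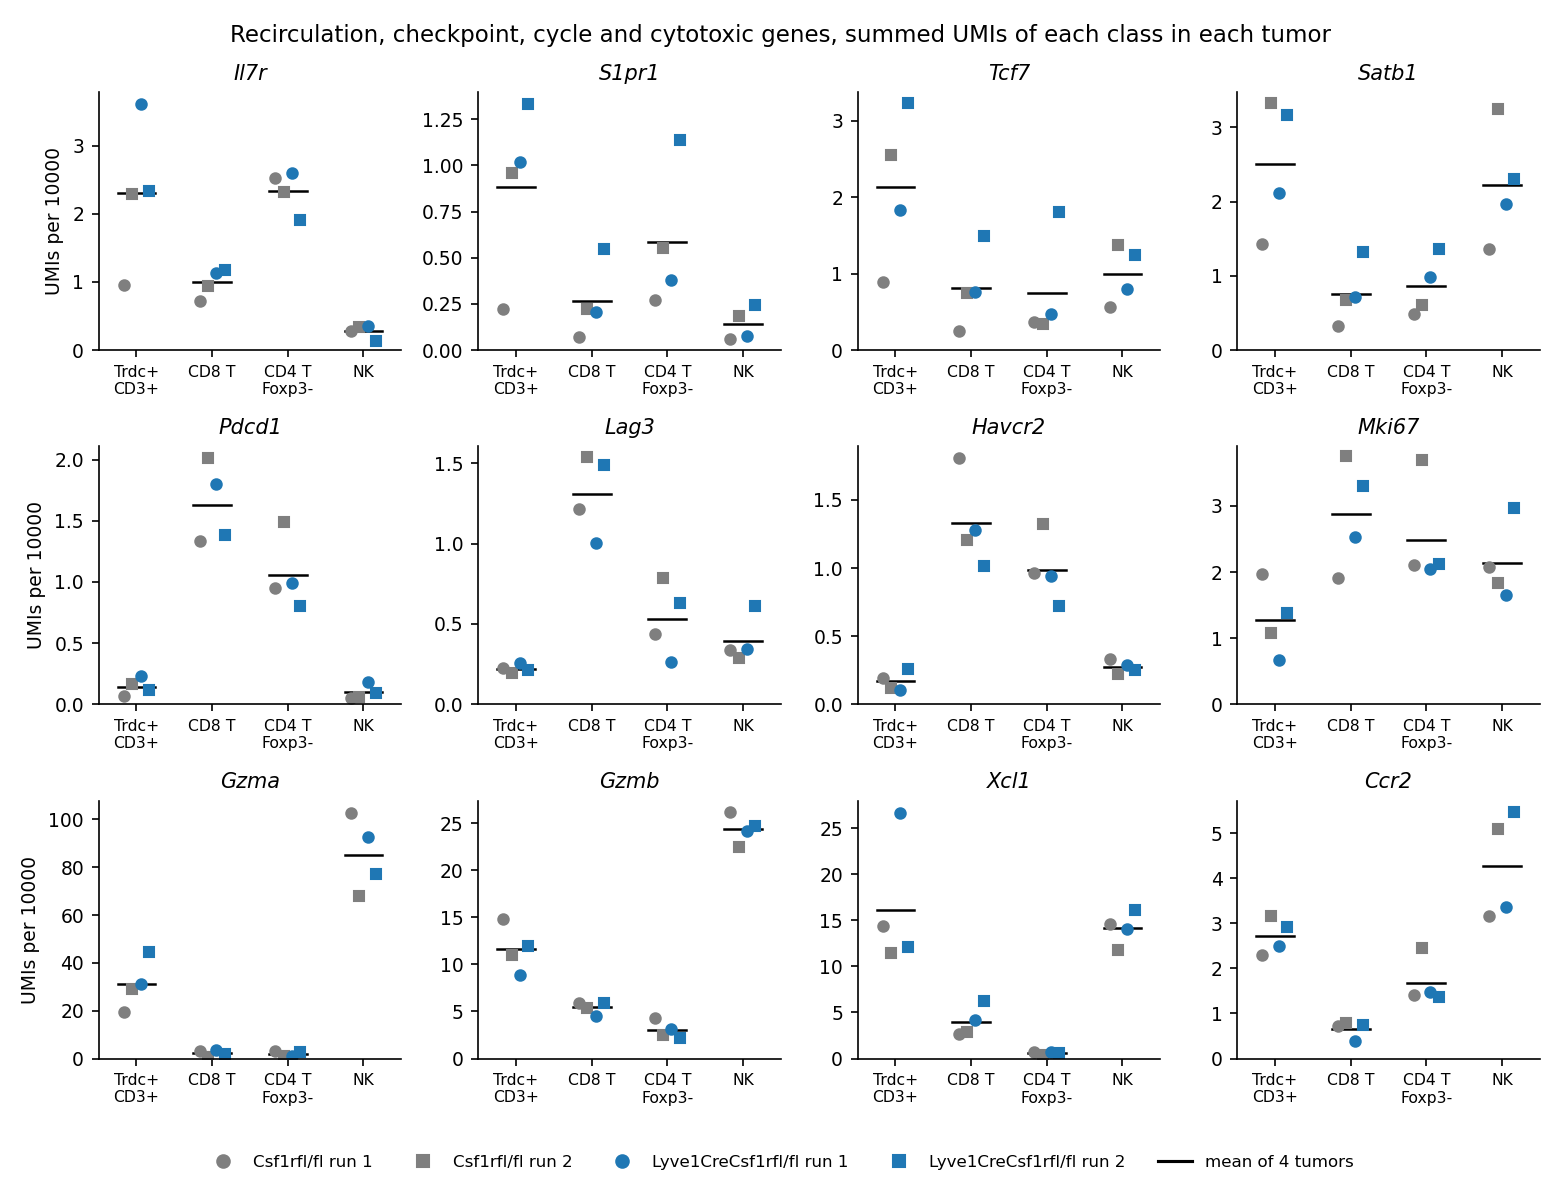
Levels of genes of killing, circulation, checkpoint control and the cell cycle in Trdc+ CD3+ cells and 3 other classes, as UMIs per 10000 summed UMIs (linear axis from 0), with 1 point per tumor and a line at the mean of the 4 tumors. Gzma in the members (19.4 to 44.7) lay between CD8 T cells and NK cells, and Pdcd1 (0.0636 to 0.229) lay under the CD8 T cells of every tumor.

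Cell cycle genes were lower than in each of the 3 classes: 15 of 18 against CD8 T cells (median -1.02), 8 of 18 against CD4 T cells (median -0.44) and 9 of 18 against NK cells (median -0.68), with 0 higher. Mki67, the proliferation marker Ki-67, stood at 1.97, 1.08, 0.663 and 1.38 in the members and 1.91, 3.75, 2.53 and 3.30 in CD8 T cells (log2 difference -1.23, SE 0.21, adjusted p = 0.000401). The members of the Csf1rfl/fl tumor of run 1 were just above its CD8 T cells, and those of the other tumors were below. Without Scrublet doublets Mki67 stood at 2.32, 1.07, 0.266 and 1.30 in the members. Members with an Mki67 or Top2a UMI numbered 13 of 43, 15 of 81, 13 of 82 and 19 of 89. Their median depths were 12715, 5098, 6817 and 7746 UMIs, against 2863.5, 4077, 3214 and 2882.5 in the other members, so the shares depend on depth. Without members with NK genes, 18 of 18 cell cycle genes were lower than in CD8 T cells (all genes 8.42%). The members left had a median depth of 3020.5 UMIs, against 4812 in those taken out and 5485 in CD8 T cells. CD8 T cells kept their cells with NK genes, and the part of this choice in the count was not tested.

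**Figure D5:**
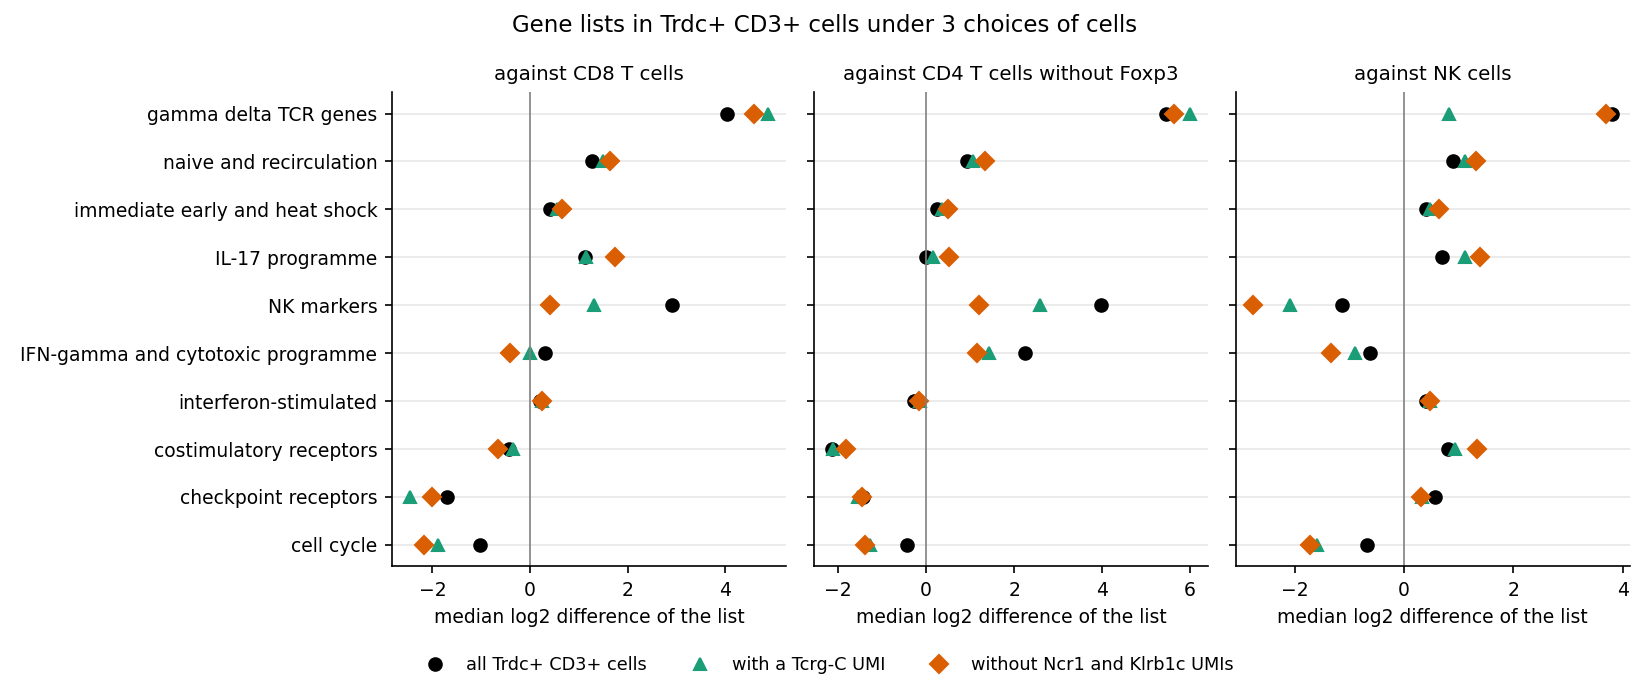
Median log2 difference of gene lists, Trdc+ CD3+ cells minus the other class, for all members, for those with a Tcrg-C UMI and for those without Ncr1 or Klrb1c UMIs (1 point per list and choice). The naive and recirculation list was above 0 against CD8 T cells under all 3 choices (7 higher, 0 lower of 9), while the cytotoxic list fell from a median of 0.30 to -0.40 without the members with NK genes.

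Shares of cells with a transcript of either effector type depend on depth and are set beside those of other classes. At least 1 UMI of Tbx21, Eomes, Ifng, Cd27, Gzma, Gzmb, Prf1, Klrd1, Klrk1 or Xcl1 was found in 273 of 295 members (92.5%, 95% exact binomial interval 88.9% to 95.3%). By tumor the shares were 93.0%, 97.5%, 87.8% and 92.1%. A UMI of the interleukin 17 core, which included Il17a, Il17f, Il23r, Cd163l1, Sox13, Blk, Il1r1, Ccr6 and Maf, was found in 81 members (27.5%, 22.4% to 32.9%). This core rested largely on Maf, which is not restricted to interleukin 17 cells. Without Maf it was found in 21 members (7.12%, 4.46% to 10.7%), of which 10 had no gene of the interferon gamma core. Thinned to 1500 UMIs, the shares were 87.0%, 15.5% and 5.28% of 284 members.

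The interferon gamma core did not single out the members. It was found in 98.0% of CD8 T cells, 74.0% of CD4 T cells without Foxp3 and 98.7% of NK cells, or 91.3%, 54.8% and 97.8% after thinning, and unthinned in 22.4% of neutrophils (median depth 2390 UMIs) and 49.8% of C1q-rich macrophages (6507 UMIs). The interleukin 17 core with Maf was found in 18.4%, 69.4% and 23.9% of CD8 T, CD4 T and NK cells, or 6.94%, 48.6% and 9.48% after thinning, and in 83.8% of C1q-rich macrophages. Without Maf these classes had 3.39%, 6.43% and 1.27%, or 1.02%, 2.75% and 0.461% after thinning. The core without Maf was also found in 1.70% of C1q-rich macrophages, 0.973% of neutrophils and 22.8% of B cells, which express Blk.

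The interleukin 17 core without Maf was found in 3, 2, 12 and 4 members of the 4 tumors, so that 12 of the 21 came from the Lyve1CreCsf1rfl/fl tumor of run 1, where it marked 14.6% of members. Cd163l1 gave most of this signal, with 54 UMIs in 15 members and up to 9 in a cell. By tumor it was seen in 2, 1, 11 and 1 members and stood at 0.159, 0.144, 1.04 and 0.0468 per 10000. The Lyve1CreCsf1rfl/fl tumor of run 1 was above the others and its counterpart in run 2 was the lowest. Of the 15 members with Cd163l1, 12 had a gamma constant UMI and 0 an NK gene, and Scrublet called 3. Il17a was seen in 3 members, of 7 kept cells with a UMI, so its level could not be compared at this depth.

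Of 19 genes tested in the full interleukin 17 list, 8 were higher and 1 lower than in CD8 T cells (median 1.12). Besides Cd163l1 (log2 difference 4.83, SE 0.70, adjusted p = 9.69e-05) they included Zbtb16, which encodes the innate-like T cell factor PLZF and was seen in 13 members (log2 difference 4.80, SE 1.05, adjusted p = 0.00469), and Maf (log2 difference 0.60, SE 0.17, adjusted p = 0.0358). Maf was lower than in CD4 T cells (log2 difference -2.23, SE 0.13, adjusted p = 3.54e-10). Without members with NK genes 12 of 20 were higher than in CD8 T cells (all genes 2.71%) and 0 lower. Against CD4 T cells the list did not lean the same way, with 1 of 11 tested higher (Cd163l1) and 3 lower (Maf, Rora and Cd44) and a median of -0.000814. Against NK cells 6 of 13 were higher and 0 lower (median 0.69).

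Members made up 0.499% of kept cells in the Csf1rfl/fl tumor of run 1 (95% exact binomial interval 0.362% to 0.672%), 1.04% (0.827% to 1.29%) in that of run 2, 1.13% (0.901% to 1.40%) in the Lyve1CreCsf1rfl/fl tumor of run 1 and 1.87% (1.50% to 2.29%) in that of run 2. The Lyve1CreCsf1rfl/fl tumor was higher within each run. Across runs the shares of the genotypes did not overlap, but 1.04% and 1.13% lay close and their intervals overlapped. The mean was 0.770% ± 0.383 (SD, n = 2) against 1.50% ± 0.519 (SD, n = 2). This difference did not pass edgeR's quasi-likelihood test on the cells of 10 classes, which draws on the spread of all of them (log2 difference 0.96, SE 0.50, adjusted p = 0.379). In simulated draws that test called an 8-fold change in 87 of 100, and smaller changes were not simulated. A two-sided exact permutation test gave p = 0.3333, the smallest p that 2 tumors against 2 allow.

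Of CD3+ cells, members were 1.32%, 3.25%, 3.22% and 4.04%, and here the Csf1rfl/fl tumor of run 2 was as high as the Lyve1CreCsf1rfl/fl tumor of run 1. The log2 ratio of Lyve1CreCsf1rfl/fl to Csf1rfl/fl within runs 1 and 2 was 1.18 and 0.84 of kept cells and 1.28 and 0.31 of CD3+ cells, and the exact permutation p for CD3+ cells was 0.667. The authors had removed clusters specific to the Lyve1CreCsf1rfl/fl tumor of run 2, which lowers that tumor's number of kept cells. Cells meeting the member rule were also found outside the kept cells, 6, 29, 13 and 51 of 1225, 1569, 3674 and 6022 barcodes searched. They are not part of these shares, and whether the genotypes stay apart with them was not tested.

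Between genotypes, 1 of 5081 genes tested was called within the members, 0.0197% of those tested, and 185 had an unadjusted p under 0.05 in edgeR's quasi-likelihood test. The called gene was Ccl12, which encodes a monocyte-attracting chemokine made mainly by macrophages. It stood at 2.23, 1.39, 0.0510 and 0.187 per 10000 in the members, lower in both Lyve1CreCsf1rfl/fl tumors, with no overlap (log2 difference -3.85, SE 0.52, adjusted p = 0.0323). Of its 138 UMIs, 92.0% lay in 5 members and the highest member had 56. Of the 15 members with a Ccl12 UMI, 12 had a UMI of Lyz2, a macrophage and neutrophil gene, and Scrublet called 7 doublets. With all Scrublet doublets left out Ccl12 had 0, 57, 1 and 8 UMIs by tumor, in place of 70, 58, 2 and 8, the genotypes overlapped, and the gene did not pass the filter on low counts, so it was not tested. It had 70, 1, 1 and 5 UMIs with a gamma constant UMI required and 1, 1, 0 and 5 without members with NK genes, where it was not tested either.

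Of the receptor, cytotoxic, circulation, checkpoint and cell cycle lists, 4 of 16, 22 of 22, 9 of 9, 3 of 10 and 16 of 18 genes could be tested between genotypes and 0 were called. Pdcd1, Lag3, Havcr2 and Ctla4 were not tested. The 22 cytotoxic genes had a median log2 difference of 0.12 (Lyve1CreCsf1rfl/fl minus Csf1rfl/fl; all genes -0.01), and the 9 naive and recirculation genes one of 0.91. Gzma stood at 19.4, 29.0, 31.3 and 44.7 and differed by 0.67 between genotypes (adjusted p = 0.998). Its direction turned to -4.07 (adjusted p = 0.00781) without the members with Ncr1 or Klrb1c, so no direction is drawn from it. Ccr7 had the values 0.0636, 0.383, 0.765 and 1.52 and differed by 2.27 (adjusted p = 0.453), so it was not called. The Lyve1CreCsf1rfl/fl tumors were above the others, and how many of all genes separate in this way was not counted. With each tumor left out Ccr7 differed by 1.67 to 4.06. Fscn1, in the dendritic cell list as Ccr7 is, differed by 3.07 (adjusted p = 0.302), and Cst3, H2-Ab1 and Cd74 of that list by -0.21, -0.99 and -0.90. In counts simulated with the spread of these members, 200 genes with mean log2 CPM above 6 were changed. The test without the run as a block recovered 92.5% of them at a change of 2 on the log2 scale, with 5 false calls. At a change of 1 it recovered 0%. Recovery of genes below that level was not simulated.

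Summed macrophage markers differed between genotypes over all members without overlap, while the neutrophil and dendritic cell sums overlapped. The summed level of 12 macrophage and monocyte markers, Ly6c2 among them, was 28.6, 22.9, 12.2 and 15.2 per 10000 in the 4 tumors. It was lower in both Lyve1CreCsf1rfl/fl tumors, and 0 of the 12 were absent from the members. The 7 neutrophil markers summed to 69.0, 16.0, 20.2 and 5.76, and the 9 dendritic cell markers to 43.9, 38.8, 18.6 and 41.3, with Xcr1 at 0. Within each run the neutrophil sum was lower in the Lyve1CreCsf1rfl/fl tumor, while the dendritic cell sum was lower in run 1 and higher in run 2. In neutrophils and C1q-rich macrophages together, the macrophage and neutrophil sums were 76.3 and 932. The 6 macrophage genes tested had a median log2 difference of -1.19 and the 4 neutrophil genes one of -1.53, with 0 called in either. Without the members that Scrublet called doublets, the macrophage sums were 8.59, 22.1, 10.99 and 15.4, the neutrophil sums 4.64, 13.4, 5.13 and 5.07 and the dendritic cell sums 15.0, 25.7, 3.99 and 36.5, and the genotypes overlapped in each. The part of these transcripts in the difference of Ccl12 was not tested.

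With the run as a block, which pairs the tumors that were pooled in the same Chromium run, 66 genes were called between genotypes. Of these 14 were higher (0.276% of 5081 tested) and 52 lower (1.02%), and 1 was shared with the fit without the block. This fit estimates both run and genotype from 4 tumors, so little spread between tumors is left to measure. Its calls thus rest largely on spread pooled across genes, and its false calls were not simulated. Higher genes included Trbc1, Il7r and Ccr7, and lower ones Lyz2, Cd14, Il1b, Isg15 and Irf7. Gzma was called higher and Retnlg lower in this fit, but in the fit without the block Gzma turned to -4.07 without members with NK genes and to -1.11 with 2 or more Trdc UMIs, and Retnlg turned to 1.18 without the Csf1rfl/fl tumor of run 1, so no direction is drawn from either. Of the lists, 2 of 6 macrophage, 3 of 4 neutrophil (Retnlg among them) and 2 of 27 interferon-stimulated genes tested were then lower with 0 higher, and 3 of 9 naive and recirculation genes were higher with 0 lower. Of 5 dendritic cell genes 2 were higher (Ccr7 and Fscn1) and 2 lower (H2-Ab1 and Cd74). The lower genes included markers of myeloid cells, whose summed levels are given above with and without doublets.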

How the data were processed

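Viable CD45+ cells of 4 hashtagged EO771 tumors were run on the 10X Chromium platform. The authors aligned reads to mm10 with Cell Ranger 6.0.1 and deposited UMI counts per gene and barcode and hashtag counts, both without normalization. They also deposited scores, namely SCTransform-corrected counts rounded to whole numbers (Seurat), for cells kept as singlets under 5% mitochondrial UMIs, outside clusters specific to 1 tumor. These scores served only to name the 28429 kept cells of 53361 barcodes. All values come from the uncorrected counts. Free RNA and doublets were not removed beyond the authors' filters.

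The tumor of a cell was the higher of its run's 2 hashtags; 11 kept cells with a tie were given to none. The members, gene lists and tests were chosen with earlier results of these data known. UMIs were summed per tumor and class, filtered with filterByExpr, scaled by TMM and tested with the quasi-likelihood test of edgeR 4.0.16 in R 4.3.3 (Benjamini-Hochberg, threshold 0.05). The values of 2 genes of these lists are not reported here. Named genes were those of the lists and, in each comparison with a class, up to 8 higher and 8 lower genes past the threshold with mean log2 CPM above 6 and the same direction in all 4 tumors.

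Same-numbered tumors shared a run per the labels, so the run was taken as a block in an alternative fit between genotypes. Deviations of the paired tumors correlated across genes with r = 0.309 (5081 genes) and 0.508 (2233 genes above a mean log2 CPM of 6). Genes are not independent replicates. Alternatives were RLE factors, DESeq2 1.42.0, no filter, no block, narrower member rules, thinning to 1500 UMIs, doublets called by Scrublet in scanpy 1.11.5 (expected rate 0.2) left out, a 3-fold hashtag margin and each tumor left out. In simulated counts 200 genes with mean log2 CPM above 6 were changed. At 2 and 1 on the log2 scale, 100% and 97.5% were recovered against CD8 T cells, 100% and 94.0% against CD4 T cells and 100% and 99.0% against NK cells. The test of shares made 13 false calls in 100 simulated draws of 10 classes and called an 8-fold change in 87. Sequences and coordinates came from mm10 with GENCODE vM21. Python 3.11.15 was used with scipy 1.17.1, numpy 2.4.6, pandas 2.3.3, Biopython 1.88 and matplotlib 3.10.9.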

Additional observations from a re-analysis of the deposited data

Results flagged for a closer look

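Cells outside the 28429 kept ones also met the rule for Trdc+ CD3+ cells. Of 12490 such barcodes with under 5% mitochondrial UMIs and a hashtag at least 3 times the other, 99 met it (0.793%, where a count of 0 would allow 0.0240%). They came from the 4 tumors as 6 of 1225, 29 of 1569, 13 of 3674 and 51 of 6022 barcodes and had a median depth of 4897 UMIs. These data were flagged because no comparison above used them. S1pr1 was found in 45.5% of them against 26.1% of the members, Tcf7 in 74.7% against 56.6% and Ccr7 in 34.3% against 13.2%. A Tcrg-C UMI was found in 53.5% against 52.2%, and Ncr1 or Klrb1c in 30.3% against 46.4%. The clusters that the authors removed were specific to the Lyve1CreCsf1rfl/fl tumor of run 2, which gave more of the searched barcodes (6022) than any other tumor. These differences were not tested.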

How the results depend on the processing

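The choices of members with a Tcrg-C UMI and without Ncr1 or Klrb1c were added after the values were seen. The difference in share between genotypes passed no test under any alternative run and ranged from 0.52 to 1.58 on the log2 scale with each tumor left out. Counts of called genes moved with several settings. DESeq2 called 560, 440 and 184 genes against CD8 T cells, CD4 T cells and NK cells, where edgeR called 928, 946 and 437. Leaving out each tumor gave 479 to 990, 537 to 927 and 244 to 397. The lowest count in each came without the Lyve1CreCsf1rfl/fl tumor of run 1, and without the Csf1rfl/fl tumor of run 2 the CD8 count was 558. Against CD4 T cells 572 were called with 2 or more Trdc UMIs, 621 after thinning, 518 with a Tcrg-C UMI required and 504 without members with NK genes. Against NK cells 242 were called without Scrublet doublets and 887 without members with NK genes. Fewer members or genes tested are part of several of these alternatives, and otherwise the cause was not tested.

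Without the tumor as a replicate block, 465, 504 and 84 genes were called against the 3 classes. Between genotypes, the run as a replicate block gave 66 calls in place of 1, and a log2 difference in share of 1.01 (adjusted p = 0.709). The pairing did not change the call on this share. RLE factors gave 2 calls between genotypes, no filter 32, a 3-fold hashtag margin 2, no Scrublet doublets 0, a Tcrg-C UMI required 0 and no members with NK genes 3. With each tumor left out the count was 13 to 59, being 18 and 59 without the Csf1rfl/fl tumors of runs 1 and 2 and 22 and 13 without the Lyve1CreCsf1rfl/fl ones, the lone tumor of a genotype being assumed to vary like the others. The count between genotypes is thus not stable.

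Reversed values arose with narrower members. With a Tcrg-C UMI required, Gzmb gave -0.14 against CD8 T cells and Ccr2 -0.13 against CD4 T cells. Without members with NK genes, Gzma gave -0.43, Gzmc -2.01 and Gzmb -1.34 against CD8 T cells, and Gzma -0.16, Gzmc -1.77, Gzmb -0.31 and Ccr2 -0.13 against CD4 T cells. Between genotypes Gzma gave -1.11 with 2 or more Trdc UMIs and -4.07 without members with NK genes, and Retnlg gave -4.57 to 1.18 with each tumor left out, the highest without the Csf1rfl/fl tumor of run 1. The interferon gamma core was found in 87.0% of members after thinning and in 90.7% to 94.4% with each tumor left out. The interleukin 17 core was found in 15.5% after thinning, 24.2% without Scrublet doublets and 26.6% to 28.6% with each tumor left out, and without Maf in 4.23% to 8.88%, the lowest without the Lyve1CreCsf1rfl/fl tumor of run 1. Of the values of named genes under the alternatives, 697 of CD8, 550 of CD4 and 590 of NK kept their direction and side of the threshold, 100, 59 and 91 kept their direction only, and 4, 5 and 0 reversed. Between genotypes 117 kept both, 49 newly passed the threshold and 3 reversed. Depth limits the low genes: Il17a and the Tcrg-V genes were not tested between genotypes.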

Other observations

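Transcripts of different receptor constant genes were seen in the same Trdc+ CD3+ cells. Tcrg-C1 and Tcrg-C4 UMIs were both present in 26 members, in 0, 11, 6 and 9 of the 4 tumors, at a median depth of 3842 UMIs. Trac, which alpha beta T cells need for their receptor, was present in 56 members, in 10, 13, 12 and 21 of the 4 tumors, at a median depth of 4409.5 UMIs, and its share was 15.2% of members with a gamma constant gene alone and 25.4% of those with neither a gamma constant nor an NK gene. All of Tcrg-C1, Tcrg-C2 and Tcrg-C4 were present in 12 members. Trac lies in the locus that holds Trdc, and the counting of reads between the variable and constant genes of that locus was not examined here.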
